A study of Mus musculus with 6 samples.

Results

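The genes described are 34 coagulation factors, natural anticoagulants, contact-system proteins, thrombin receptors and vitamin K cycle enzymes, chosen as a list by symbol; all 34 are among the 24318 rows of the expression table. They were measured in 6 whole-liver samples of C57BL/6 mice with the genotype VEcadCreERT2/TAK1flox/flox, in which a tamoxifen-inducible Cre recombinase under the VE-cadherin promoter of endothelial cells can delete the floxed gene of the kinase TAK1 (Map3k7). The 3 knockout samples came from mice given tamoxifen, and the 3 control samples from mice of the same genotype without treatment, so deletion of TAK1 and exposure to tamoxifen cannot be told apart. Age, sex and the time after tamoxifen are not given in the sources used here, and no label says that the 3 samples of a group are 3 separate mice, so the p-values reflect no more than the spread among these 6 samples, which may be technical. The descriptions of knockout 1 and knockout 3 carry a suffix whose meaning is not given.

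Blood clots when tissue factor, exposed at a wound, sets off a chain of proteases that ends in thrombin, which cuts fibrinogen into fibrin. Hepatocytes secrete most of the proteases, the fibrinogen chains and the circulating inhibitors, and vitamin K-dependent carboxylation in the endoplasmic reticulum lets several of them bind membranes. Endothelial cells supply factor VIII and von Willebrand factor and carry the surface proteins that turn thrombin towards activating protein C. The members were therefore grouped from textbook knowledge into 22 made by hepatocytes, 5 made by endothelium, 5 with another source or several sources, and 2 enzymes of the vitamin K cycle. F5 and Pros1, placed with the hepatocyte genes, are also made by megakaryocytes and endothelium.

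Whole-liver RNA of knockout livers held more Fga, Fgb and Cpb2 transcripts, which encode fibrinogen chains and an inhibitor of fibrin lysis, and less of the transcripts of antithrombin, heparin cofactor II, protein C, protein Z, plasma prekallikrein, the factor XIII B chain and the vitamin K epoxide reductase. Among endothelium-made members, F8 and Vwf fell while Thbd and Procr rose. The kininogen gene Kng2 also rose, and F3, the gene of tissue factor, fell. F13a1, a gene of monocytes, macrophages and platelets, had the largest change of all members. Levels are FPKM (sequenced fragments divided by transcript length and by library size), and means are given ± SD with n = 3. Single values follow the library numbers 1 to 3 of each group. Every log2 fold change is knockout minus control in log2(FPKM + 0.5), given ± its standard error, a scale that understates changes of low genes. A gene counts as called at a limma adjusted p under 0.05 (Benjamini-Hochberg) over all 11842 genes whose mean reached 0.5 FPKM. Of the 34 members 33 were tested, and 17 of these were called, 7 higher and 10 lower, against 27.0% of all genes tested (14.1% higher and 13.0% lower). Groups of 3 libraries did not overlap for 19 members, 9 higher and 10 lower, against 43.5% of all genes tested (22.4% higher and 21.1% lower). The median log2 fold change was -0.12 over the 33 members and -0.0007 over all genes. F13a1 passed the filter only through its knockout level, and F8 and Vwf only through their control level. The members called higher numbered 4 without control 1, without control 3 or without knockout 3. The calls of Fga, Fgb, Kng2, Proc and F3 were each lost on leaving out any 1 of several libraries. Those of Proz and Vwf were lost without 1 library.

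**Figure D1:**
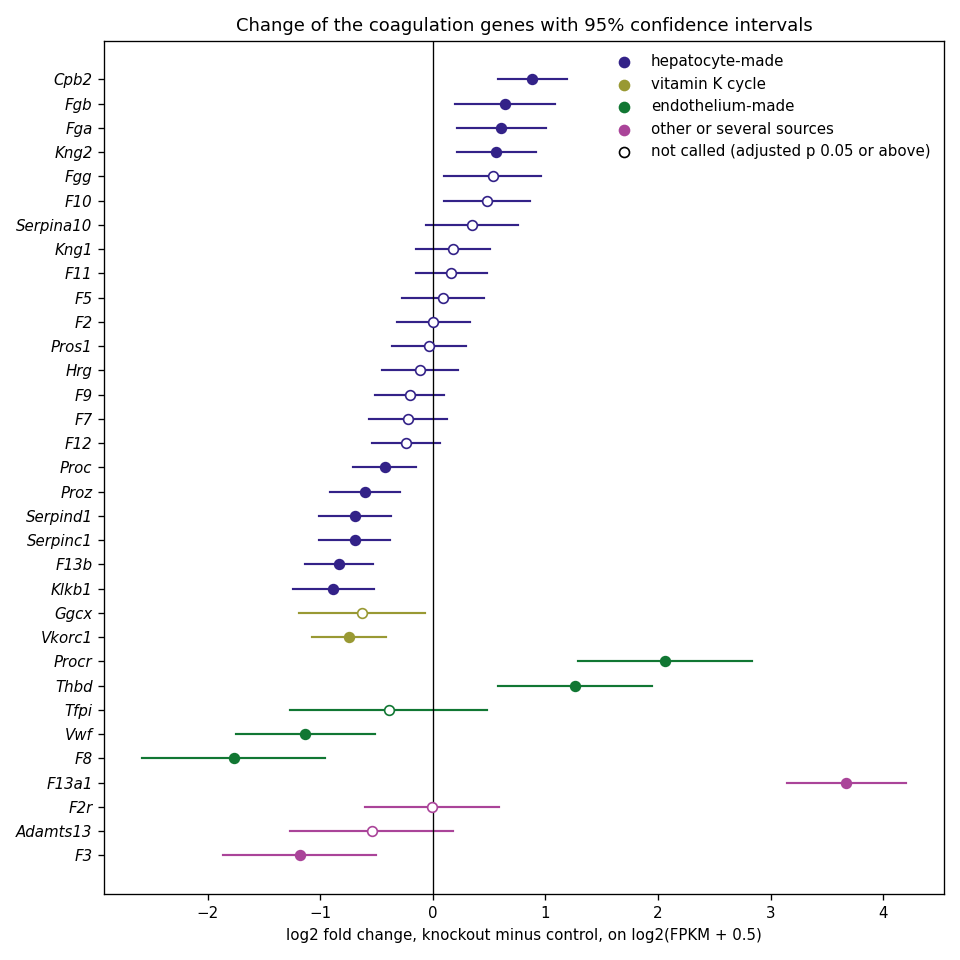
Log2 fold change of knockout against control (horizontal axis, log2(FPKM + 0.5) scale) for the 33 tested coagulation genes, with 95% confidence intervals from the limma fit, colour by source and filled points for called genes. Hepatocyte-made genes lie between -0.88 and 0.88, whereas endothelium-made genes reach -1.77 (F8) and 2.06 (Procr) and F13a1 lies at 3.67.

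The 6 libraries were alike in size as far as the values show. FPKM keep no counts; steps between the lowest values put the depths at 0.921 to 1.08 times that of control 1, provided that scaling used each library's own mapped total, while absolute depth is unknown. Summed FPKM without the albumin gene ran from 440764 to 559516. The albumin gene was listed at 0 in all controls and at 55705 to 73306 FPKM in the knockouts and was left out, and the tissue label rests here on other hepatocyte-secreted genes, of which 14 were measured at 43629.8 to 56855 FPKM in control and 36624 to 41940.0 FPKM in knockout libraries in sum. Spearman correlations over tested genes were 0.951 to 0.971 within and 0.868 to 0.910 between groups. The deposited scaling gave 52.1% higher calls over all genes; with every library at the same summed FPKM the median of all genes shifted to -0.11 and 39.5% of calls were higher, while the members then numbered 7 higher and 11 lower.

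The fibrinogen chains were the most abundant members. Fibrinogen is a hexamer of Aα, Bβ and γ chains encoded by Fga, Fgb and Fgg, which neighbour each other with no protein-coding gene between them in the RefSeq annotation of GRCm38.p6. Because these genes lie side by side and had similar changes, the 250 bases before the annotated starts are shown for the 3 chains, from RefSeq on GRCm38.p6, a later build than the mm9 used by the authors. Capitals mark letters that match a motif on either strand, and the sequences read 5′ to 3′ along the gene.
Fga: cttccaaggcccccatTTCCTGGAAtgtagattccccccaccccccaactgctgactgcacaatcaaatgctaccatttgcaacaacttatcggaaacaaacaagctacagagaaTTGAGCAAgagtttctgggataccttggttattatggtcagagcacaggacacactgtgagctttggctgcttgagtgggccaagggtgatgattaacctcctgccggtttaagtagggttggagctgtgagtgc
Fgb: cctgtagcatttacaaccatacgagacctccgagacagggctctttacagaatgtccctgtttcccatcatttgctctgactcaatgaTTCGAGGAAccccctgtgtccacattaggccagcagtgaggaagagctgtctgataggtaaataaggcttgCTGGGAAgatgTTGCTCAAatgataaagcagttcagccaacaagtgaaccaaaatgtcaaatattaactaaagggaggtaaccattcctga
Fgg: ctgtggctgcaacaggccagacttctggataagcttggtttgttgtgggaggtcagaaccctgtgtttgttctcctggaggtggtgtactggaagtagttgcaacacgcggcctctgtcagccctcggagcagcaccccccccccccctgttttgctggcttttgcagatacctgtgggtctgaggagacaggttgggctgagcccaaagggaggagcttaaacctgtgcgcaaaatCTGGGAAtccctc
They lie at chr3:83025903-83026152 (plus strand), chr3:83049864-83050113 (minus strand) and chr3:83007474-83007723 (plus strand). The motifs searched were TTCNNNGAA of STAT factors, CTGGGAA, the core of interleukin-6 response elements, TTGCNNAA of C/EBP factors, CAAAGTC of HNF4 and TATAAA. Fga held TTCCTGGAA from base 234 to base 226 before the start and TTGAGCAA, the C/EBP letters on the minus strand, from 135 to 128. Fgb held TTCGAGGAA from 162 to 154, CTGGGAA from 91 to 85 and TTGCTCAA from 80 to 73. Fgg held CTGGGAA from 13 to 7. Among 32841 promoter windows of that length, 7.02% held the STAT letters, 9.10% CTGGGAA, 9.57% the C/EBP letters, 3.84% the HNF4 letters and 12.4% the TATA letters. These matches are descriptions and not binding sites, and no motif in the fibrinogen windows overlapped another.

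All fibrinogen chains were higher in every knockout library than in every control library. Fga measured 1746, 2159.6 and 1612 FPKM in the 3 controls and 2732, 2635 and 2987 FPKM in the 3 knockouts, a rise of 1.52-fold (log2 fold change 0.61 ± 0.17, adjusted p = 0.0300). Fgb measured 3403, 4387 and 3341 FPKM in the 3 controls and 5628, 5196 and 6477 FPKM in the 3 knockouts (1.56-fold, log2 fold change 0.64 ± 0.20, adjusted p = 0.0387). Fgg measured 2724, 3403 and 2429 FPKM in the 3 controls and 4013, 3808 and 4452 FPKM in the 3 knockouts, and its log2 fold change of 0.53 (95% interval 0.10 to 0.96) did not pass (adjusted p = 0.0671), except with robust variances (adjusted p = 0.0335). The chain genes thus had groups that did not overlap, with control 2 the highest control for each. Leaving out 1 library ended these calls in most cases. Fgb was not called without any 1 of the 6 libraries (log2 fold changes 0.55 to 0.77, adjusted p of 0.0502 to 0.121), and Fga was not called without control 1, control 3, knockout 1 or knockout 3 (0.52 to 0.62 on the log2 scale, adjusted p of 0.0624 to 0.0945). With the replicate block the adjusted p was 0.0862 for Fga and 0.114 for Fgb, and without a filter on low values it was 0.0753 and 0.117. The ratio of Fgb to Fga was 1.95, 2.03 and 2.07 in the 3 controls and 2.06, 1.97 and 2.17 in the 3 knockouts, with overlapping groups. The ratio of Fgg to Fga was 1.56, 1.58 and 1.51 in the 3 controls and 1.47, 1.45 and 1.49 in the 3 knockouts, and each knockout lay below each control. The share of the chains in summed FPKM, in percent, was 1.64, 2.03 and 1.67 in the 3 controls and 2.54, 2.39 and 2.49 in the 3 knockouts. Acute phase genes, the genes of inflammation to which fibrinogen belongs, moved in the same direction. In a separate list 14 of 15 were called higher and 0 lower (median log2 fold change 1.52). Over all genes tested 14.1% were called higher and 13.0% lower. The part of the acute phase genes in the fibrinogen result was not tested. In whole-liver RNA, a change in the number of cells of a type and a change in RNA per cell cannot be told apart.

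**Figure D2:**
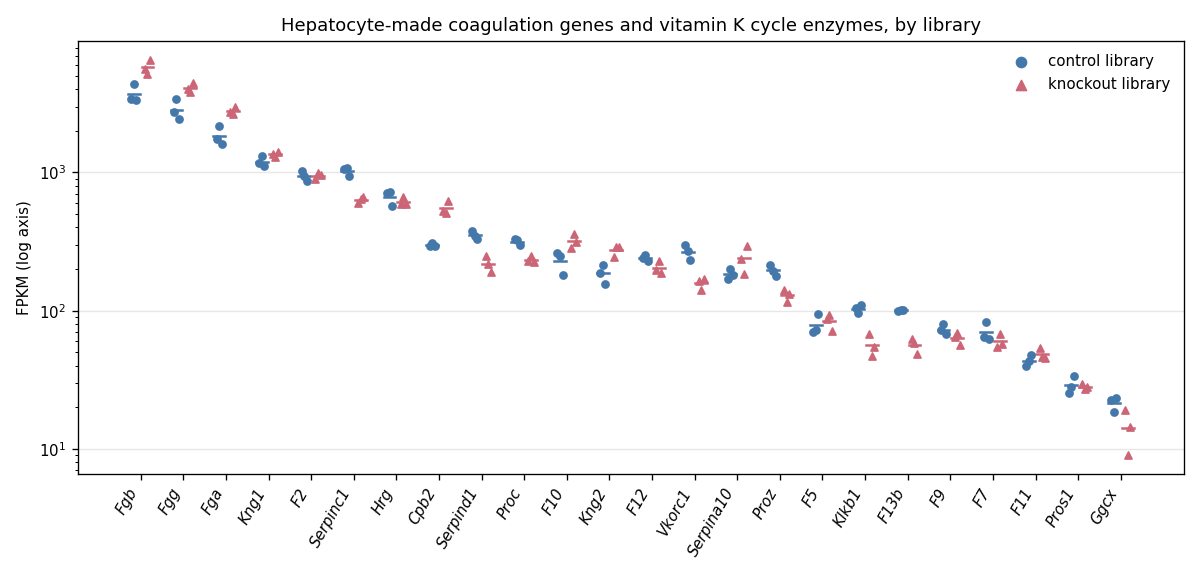
FPKM (log axis) of the 22 hepatocyte-made coagulation genes and the 2 vitamin K cycle enzymes in each library, ordered by mean level, with short bars at group means. The fibrinogen genes lie highest and are higher in each knockout than in each control, while Serpinc1, Serpind1, Klkb1 and F13b fall without overlap.

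Of the 22 hepatocyte-made members, 4 rose (Cpb2, Fgb, Fga and Kng2), 6 fell (Klkb1, F13b, Serpinc1, Serpind1, Proz and Proc) and 12 did not pass the test. Over all genes tested 14.1% were called higher and 13.0% lower. The median log2 fold change of the 22 members was -0.015. That of 14 other hepatocyte-secreted genes was -0.049, with 0 of those higher and 3 lower (Apoa2, Ttr and Serpina1c). The hepatocyte-made members called higher numbered 1 without control 1, control 3 or knockout 3 and 2 without knockout 1.

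Cpb2 rose and F13b fell. Cpb2 encodes thrombin-activatable fibrinolysis inhibitor, a carboxypeptidase that trims fibrin and slows its lysis. It measured 295, 308 and 294 FPKM in the 3 controls and 528, 513 and 619.6 FPKM in the 3 knockouts, which is 1.84-fold higher (log2 fold change 0.88 ± 0.14, adjusted p = 0.00178). Its control libraries lay within a narrow range, and every knockout library was far above them. F13b, the carrier subunit of the fibrin cross-linking factor XIII, measured 99.7, 101 and 101 FPKM in the 3 controls and 61.9, 58.3 and 48.8 FPKM in the 3 knockouts. The groups were widely separated, and the fall of 1.78-fold passed (log2 fold change -0.84 ± 0.13, adjusted p = 0.00216). Both calls held under each of the 15 alternatives run. The other subunit gene, F13a1, is made outside hepatocytes and went the opposite way, as described with those genes. For comparison with the fibrinogen windows, the promoters of Cpb2 and F13b are shown, at chr14:75242037-75242286 (plus strand) and chr1:139501457-139501706 (plus strand) of GRCm38.p6.
Cpb2: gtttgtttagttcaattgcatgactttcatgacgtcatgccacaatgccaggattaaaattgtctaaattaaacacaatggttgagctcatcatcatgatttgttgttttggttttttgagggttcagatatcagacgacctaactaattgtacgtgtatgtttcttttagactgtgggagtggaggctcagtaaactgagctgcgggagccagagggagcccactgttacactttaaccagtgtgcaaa
F13b: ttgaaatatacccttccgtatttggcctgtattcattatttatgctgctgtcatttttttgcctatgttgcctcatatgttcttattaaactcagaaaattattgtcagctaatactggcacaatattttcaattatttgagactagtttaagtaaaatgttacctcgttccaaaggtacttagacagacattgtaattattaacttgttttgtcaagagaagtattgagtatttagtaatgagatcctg
Neither Cpb2 nor F13b held any of the 5 motifs. Of 19 hepatocyte-made genes with a window in the table, 4 held the STAT letters, 3 CTGGGAA, 7 the C/EBP letters, 0 the HNF4 letters and 1 the TATA letters. The STAT letters stood in Fga and Fgb, which rose, and in F9 and Pros1, which did not pass. CTGGGAA stood in Fgb and in Fgg and F9, which did not pass. The C/EBP letters stood in Fga, Fgb and Kng2, which rose, in Klkb1, which fell, and in F9, F11 and Hrg, which did not pass.

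None of the protease zymogens of the main cascade passed the test. F2, which encodes prothrombin, had 945 ± 77.8 FPKM in control and 946 ± 47.6 FPKM in knockout livers, and its log2 fold change was 0.0031 (95% interval -0.32 to 0.33). Control and knockout libraries overlapped almost fully for F2, and its small difference was -0.12 with equal summed FPKM. F10, the protease that cuts prothrombin, measured 259.7, 249 and 183 FPKM in the 3 controls and 284, 359 and 316 FPKM in the 3 knockouts. Its groups did not overlap, yet the log2 fold change 0.48 (95% interval 0.094 to 0.87) did not pass (adjusted p = 0.0661). For F5, which encodes the cofactor of activated factor X, the log2 fold change was 0.089 (95% interval -0.28 to 0.45), and -0.031 with equal summed FPKM. F7, the partner of tissue factor, had -0.22 (95% interval -0.57 to 0.13). F9, whose protein works with factor VIII, had -0.20 (95% interval -0.51 to 0.10). F11, which encodes the activator of factor IX, had 0.17 (95% interval -0.15 to 0.48). All 4 of these overlapped between groups, and their adjusted p-values ran from 0.306 (F9) to 0.726 (F5).

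Contact-system genes were divided. Plasma prekallikrein, the zymogen that factor XII activates and that releases bradykinin, is encoded by Klkb1. It measured 104, 96.5 and 109.5 FPKM in the 3 controls and 68.1, 46.7 and 54.2 FPKM in the 3 knockouts. Every knockout library was below every control, and the fall of 1.85-fold passed (log2 fold change -0.88 ± 0.16, adjusted p = 0.00364) and held under each alternative. The kininogen genes Kng1 and Kng2 are close paralogs that can share reads, so their separate values are uncertain. Kng2 measured 188, 215 and 156 FPKM in the 3 controls and 246, 288 and 288 FPKM in the 3 knockouts and rose 1.48-fold (log2 fold change 0.56 ± 0.16, adjusted p = 0.0251), but its call was lost without control 1, control 3, knockout 2 or knockout 3 (0.44 to 0.58 on the log2 scale, adjusted p of 0.0614 to 0.0689) and without a variance trend (adjusted p = 0.0620). Kng1, several times as abundant, had 1196 ± 99.1 FPKM in control and 1352 ± 52.0 FPKM in knockout livers and a log2 fold change of 0.18 (95% interval -0.15 to 0.51). F12, the gene of the contact zymogen factor XII, had 241 ± 13.4 FPKM in control and 205 ± 22.5 FPKM in knockout livers, with a log2 fold change of -0.24 (95% interval -0.54 to 0.065). Hrg, whose histidine-rich glycoprotein binds heparin and plasminogen, had 669 ± 84.3 FPKM in control and 614 ± 39.9 FPKM in knockout livers, with a log2 fold change of -0.12 (95% interval -0.46 to 0.22). Kng1, F12 and Hrg overlapped between groups.

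Among hepatocyte-made anticoagulant genes, Serpinc1, Serpind1, Proz and Proc fell, and Serpina10, Pros1 and Hrg did not pass; over all genes tested 13.0% were called lower and 14.1% higher. Antithrombin, the main inhibitor of thrombin and factor Xa, is encoded by Serpinc1, which measured 1064, 1084 and 937 FPKM in the 3 controls and 600.1, 644 and 661 FPKM in the 3 knockouts. Its groups were far apart, and the fall of 1.62-fold passed (log2 fold change -0.69 ± 0.14, adjusted p = 0.00640). Serpind1, the gene of heparin cofactor II, a thrombin inhibitor, measured 377, 348 and 331 FPKM in the 3 controls and 247, 217 and 192 FPKM in the 3 knockouts. The groups did not overlap, and the fall was 1.61-fold (log2 fold change -0.69 ± 0.14, adjusted p = 0.00704). Both calls held under each of the 15 alternatives. Proz, whose protein Z guides an inhibitor to factor Xa, measured 216, 195 and 179.8 FPKM in the 3 controls and 141, 115 and 132 FPKM in the 3 knockouts (log2 fold change -0.60 ± 0.14, adjusted p = 0.0115). Without control 1 its adjusted p was 0.0516 and its log2 fold change -0.54. The gene of that inhibitor, Serpina10, measured 169, 202 and 183 FPKM in the 3 controls and 238, 183 and 295 FPKM in the 3 knockouts. Knockout 2 lay among the controls, and the log2 fold change 0.35 (95% interval -0.061 to 0.76) did not pass (adjusted p = 0.189), while without knockout 2 it was 0.53 with adjusted p = 0.0440. Proc, the gene of protein C, which once activated destroys factors Va and VIIIa, measured 329, 322 and 297 FPKM in the 3 controls and 230.1, 247 and 226 FPKM in the 3 knockouts (log2 fold change -0.43 ± 0.13, adjusted p = 0.0316). All knockout libraries were below all controls for Proc, but the call was lost without control 1, control 2, knockout 1 or knockout 3 (-0.42 to -0.40 on the log2 scale, adjusted p of 0.0797 to 0.116) as well as with the replicate block (adjusted p = 0.0767) and without a variance trend (adjusted p = 0.0790). Pros1, the gene of its cofactor protein S, had 29.0 ± 4.10 FPKM in control and 28.2 ± 1.07 FPKM in knockout livers and a log2 fold change of -0.033 (95% interval -0.36 to 0.30). The windows of Serpind1 at chr16:17331121-17331370 (plus strand) and of Klkb1 at chr8:45294836-45295085 (minus strand) are shown as examples of genes that fell.
Serpind1: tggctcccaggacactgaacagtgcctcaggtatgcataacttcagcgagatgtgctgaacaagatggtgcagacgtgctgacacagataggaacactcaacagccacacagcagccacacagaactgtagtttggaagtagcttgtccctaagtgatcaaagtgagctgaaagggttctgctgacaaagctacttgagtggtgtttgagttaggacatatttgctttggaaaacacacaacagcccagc
Klkb1: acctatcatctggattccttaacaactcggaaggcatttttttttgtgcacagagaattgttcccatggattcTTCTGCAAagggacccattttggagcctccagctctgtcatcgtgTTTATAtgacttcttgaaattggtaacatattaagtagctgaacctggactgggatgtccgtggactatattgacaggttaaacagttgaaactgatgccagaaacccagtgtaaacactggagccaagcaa
Serpind1 held none of the 5 motifs, and Klkb1 held TTCTGCAA, the C/EBP letters on the minus strand, from base 177 to base 170 and TTTATA, the TATA letters on the minus strand, from 132 to 127.

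The balance of clotting and anticoagulant transcripts within a liver was followed as ratios of FPKM, which do not depend on library scaling; these ratios were chosen after their values were seen and are given as descriptions. Fga to Serpinc1 was 1.64, 1.99 and 1.72 in the 3 controls and 4.55, 4.09 and 4.52 in the 3 knockouts. F2 to Serpinc1 was 0.965, 0.863 and 0.931 in the 3 controls and 1.49, 1.54 and 1.44 in the 3 knockouts, so antithrombin transcripts exceeded prothrombin transcripts in each control and were below them in each knockout. Ratios were also taken for 2 pairs of neighbouring genes beside the fibrinogen chains. F11 and Klkb1, paralogous proteases that lie side by side, had ratios of 0.380, 0.447 and 0.436 in the 3 controls and 0.793, 0.997 and 0.844 in the 3 knockouts. F10 and Proz, adjacent in the cluster F7, F10 and Proz, had ratios of 1.20, 1.28 and 1.02 in the 3 controls and 2.02, 3.12 and 2.38 in the 3 knockouts. In each of these ratios the knockout libraries lay above all controls. Hrg, Kng2 and Kng1 form another such cluster, in which Kng2 alone was called.

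**Figure D3:**
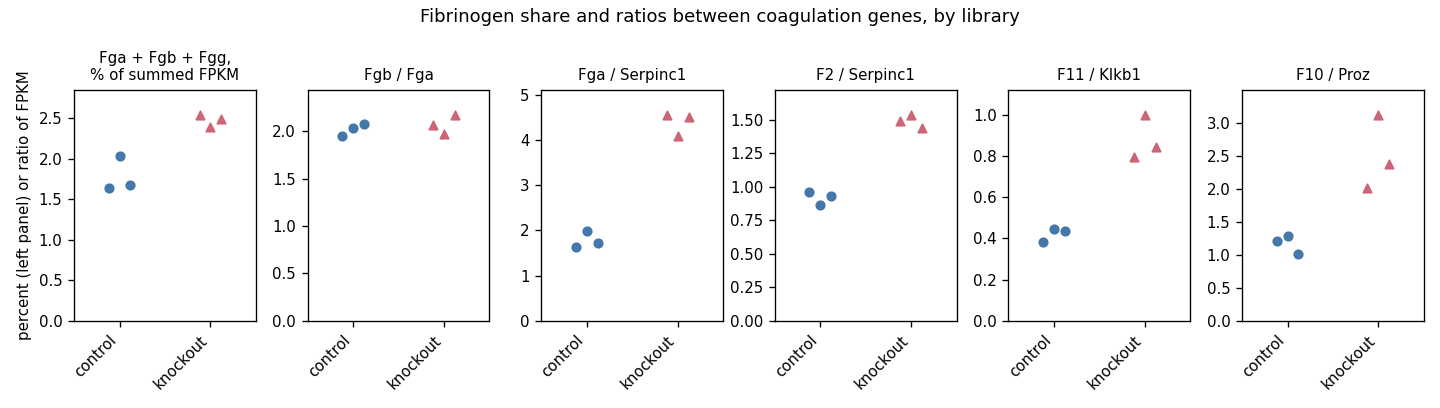
Share of the fibrinogen genes in summed FPKM (left panel, percent) and ratios of FPKM between pairs of coagulation genes, 1 point per library, axes from 0. Fgb to Fga stays between 1.95 and 2.17 in all 6 libraries, whereas the ratios to Serpinc1, Klkb1 and Proz are higher in each knockout than in each control.

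Both vitamin K cycle genes had lower means in knockout livers. Vkorc1, the epoxide reductase that regenerates vitamin K and is the target of warfarin, measured 299, 269 and 234 FPKM in the 3 controls and 164, 141 and 171 FPKM in the 3 knockouts. The groups did not overlap, and the fall of 1.68-fold passed (log2 fold change -0.75 ± 0.15, adjusted p = 0.00543) and held under each alternative. Ggcx, the carboxylase that uses the vitamin, measured 22.6, 18.6 and 23.5 FPKM in the 3 controls and 19.3, 9.12 and 14.5 FPKM in the 3 knockouts. Knockout 1 lay among the controls, and the log2 fold change -0.63 (95% interval -1.19 to -0.071) did not pass (adjusted p = 0.0902). Without knockout 1 it was -0.87 with adjusted p = 0.0305, and Ggcx also passed with the replicate block (adjusted p = 0.0457) and with equal summed FPKM (adjusted p = 0.0476). Of the carboxylase substrate genes among the members, Proc and Proz fell, while F2, F7, F9, F10 and Pros1 did not pass; over all genes tested 27.0% were called.

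Endothelium-made members went in opposite directions: 2 fell, 2 rose and Tfpi did not pass. Of all genes tested, 14.1% were called higher and 13.0% lower. F8, the gene of the cofactor factor VIII, made in liver by sinusoidal endothelium, measured 1.47, 2.27 and 4.25 FPKM in the 3 controls and 0.451, 0.189 and 0.498 FPKM in the 3 knockouts. Control 3 was the highest, every knockout library was below 0.5 FPKM, and the fall passed (log2 fold change -1.77 ± 0.36, adjusted p = 0.00649). Vwf, which encodes the multimeric platelet adhesion protein that carries factor VIII, measured 1.26, 1.76 and 1.34 FPKM in the 3 controls and 0.325, 0.466 and 0.369 FPKM in the 3 knockouts. All knockout libraries were below all controls (log2 fold change -1.14 ± 0.27, adjusted p = 0.0141), but without control 2 the adjusted p was 0.0672 and the log2 fold change -1.03. F8 and Vwf passed the filter only through their control level. Thbd encodes thrombomodulin, which switches thrombin to the activation of protein C, and measured 2.73, 0.984 and 1.75 FPKM in the 3 controls and 3.86, 4.94 and 5.79 FPKM in the 3 knockouts. It rose without overlap (log2 fold change 1.26 ± 0.30, adjusted p = 0.0137), with control 1 nearest the knockouts. Procr, the gene of the endothelial protein C receptor that presents protein C to thrombomodulin, measured 0.948, 1.31 and 3.51 FPKM in the 3 controls and 7.89, 9.12 and 8.92 FPKM in the 3 knockouts. Control 3 stood above the other controls, the control mean being 1.92 FPKM with it and 1.13 FPKM without it, and the rise passed (log2 fold change 2.06 ± 0.34, adjusted p = 0.00258). The F8, Thbd and Procr calls held under each of the 15 alternatives, with log2 fold changes of -2.06 to -1.43 for F8, 0.98 to 1.54 for Thbd and 1.76 to 2.49 for Procr when 1 library was left out. Tfpi, the inhibitor of tissue factor and factor VIIa, measured 1.49, 3.62 and 4.41 FPKM in the 3 controls and 1.19, 2.93 and 2.58 FPKM in the 3 knockouts, with a log2 fold change of -0.39 (95% interval -1.27 to 0.48). Its groups overlapped, with control 1 and knockout 1 the lowest of their groups.

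**Figure D4:**
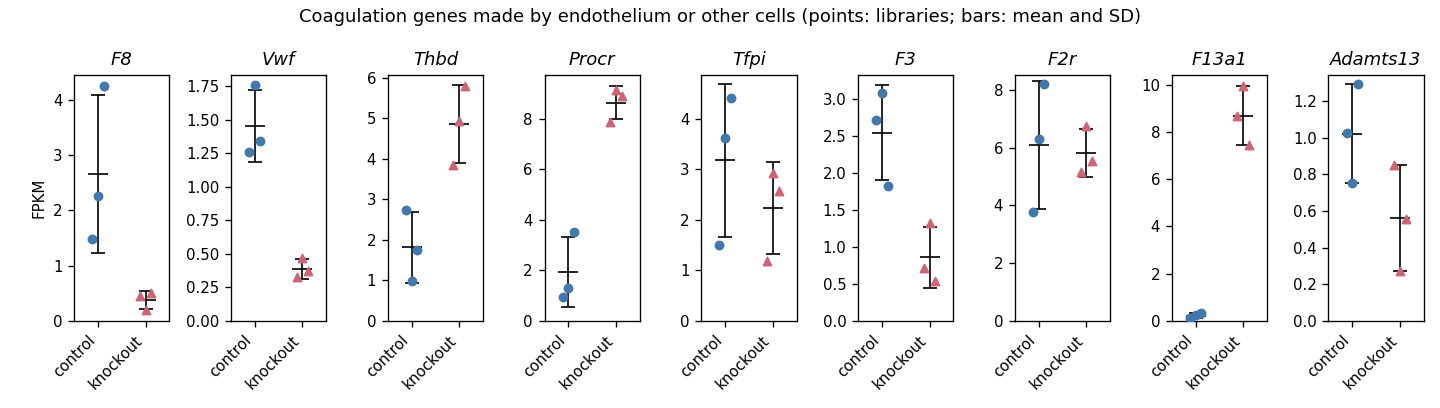
FPKM of 5 endothelium-made members (F8, Vwf, Thbd, Procr, Tfpi) and of F3, F2r, F13a1 and Adamts13 in each library, axes from 0, with group mean and SD. F8, Vwf and F3 are lower and Thbd, Procr and F13a1 higher in every knockout library than in every control, while Tfpi, F2r and Adamts13 overlap.

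Most markers of endothelial cells fell, as F8 and Vwf did, whereas Thbd and Procr rose. Of 18 such markers 13 fell and 0 rose, against 13.0% lower and 14.1% higher over all genes tested. Their median log2 fold change was -1.23, and their summed level was 202 to 305 FPKM in control and 77.7 to 91.8 FPKM in knockout libraries. Clec4g and Ptprb passed the filter only through their control level. Clec4g, the most abundant, was listed at 0 in knockout 2 and knockout 3, while Cdh5, Pecam1, Eng, Stab2 and Emcn did not pass. The falls of F8 and Vwf (log2 -1.77 and -1.14) thus stood beside a fall of most endothelial markers, whereas Thbd and Procr (log2 1.26 and 2.06) rose; the difference between these genes and the markers was not tested. Thrombomodulin and the protein C receptor are also made by some monocytes and macrophages. Of 14 markers of those cells 11 rose and 0 fell, against 14.1% higher and 13.0% lower over all genes tested. Their summed level was 431 to 943 FPKM in control and 1367 to 1462 FPKM in knockout libraries. Ly6c2 and Chil3 among them were listed at 0 in control 2, and Chil3 passed the filter only through its knockout level. The part of these markers in the rise of Thbd and Procr was not tested.

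Members with other or several sources differed widely. F13a1, which encodes the catalytic subunit of factor XIII in monocytes, macrophages and platelets, measured 0.114, 0.237 and 0.316 FPKM in the 3 controls and 8.69, 9.94 and 7.44 FPKM in the 3 knockouts. The knockout libraries lay far above the controls (log2 fold change 3.67 ± 0.23, adjusted p = 2.87e-05), and the call held under each alternative. F13a1 passed the filter only through its knockout level. Its ratio of means, 39.1, rests on a control mean of 0.222 FPKM, below the 0.5 FPKM added before the logarithm. Beside the monocyte and macrophage markers above, 4 of 6 tested platelet markers rose and 0 fell. Over all genes tested 14.1% were called higher and 13.0% lower. Gp9 and Tubb1, called higher, passed the filter only through their knockout level (control means 0.220 and 0.283 FPKM), and the Tubb1 groups overlapped. The summed level of all 8 was 4.35 to 14.3 FPKM in control and 25.0 to 33.2 FPKM in knockout libraries. The part of these markers in the F13a1 result was not tested. Among these markers Gp9 was listed at 0 in controls 2 and 3, Gp1bb and Tubb1 in controls 1 and 2, and Treml1 in control 1. F3 encodes tissue factor, the initiator of clotting made by perivascular cells, epithelia and activated monocytes. It measured 2.72, 3.08 and 1.82 FPKM in the 3 controls and 0.711, 1.32 and 0.536 FPKM in the 3 knockouts, and it fell without overlap (log2 fold change -1.18 ± 0.30, adjusted p = 0.0182). The F3 call was lost without control 1, control 2, knockout 1 or knockout 3 (-1.13 to -1.01 on the log2 scale, adjusted p of 0.0543 to 0.0764). Adamts13, the protease of stellate cells that cleaves von Willebrand factor, measured 1.03, 0.752 and 1.29 FPKM in the 3 controls and 0.853, 0.274 and 0.557 FPKM in the 3 knockouts, with a log2 fold change of -0.54 (95% interval -1.27 to 0.18). Among 9 stellate markers 4 rose and 0 fell (median 0.65), against 14.1% higher and 13.0% lower over all genes tested. F2r, the thrombin receptor of endothelium and stellate cells, measured 3.77, 6.29 and 8.19 FPKM in the 3 controls and 5.15, 6.76 and 5.55 FPKM in the 3 knockouts, with a log2 fold change of -0.0067 (95% interval -0.60 to 0.59), so the groups overlapped and the interval is wide. F2rl1, which encodes a trypsin-activated receptor of the same family and neighbours F2r, was listed at 0 in all libraries but knockout 1, where it was 0.156 FPKM, and was not tested.

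**Figure D5:**
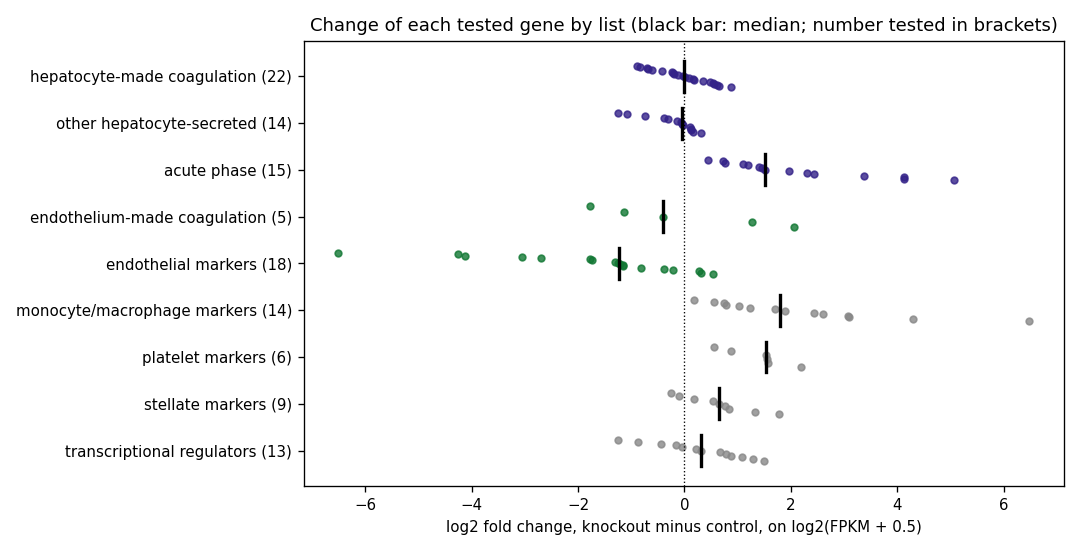
Log2 fold change of each tested gene (points, log2(FPKM + 0.5) scale) in 9 gene lists with the list median as a black bar and the number tested in brackets. Hepatocyte-made coagulation genes spread around a median of -0.015, acute phase genes lie above 0 with a median of 1.52, and most endothelial markers lie below 0.

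Other genes of coagulation, fibrinolysis and their partners came from a separate list of 24. Of these 21 were tested, 9 rose and 1 fell, with a median log2 fold change of 0.27. Across all genes tested 14.1% were called higher and 13.0% lower. Pzp, which encodes a broad protease inhibitor of the alpha-2-macroglobulin family, rose from 1375 ± 146 to 3012 ± 223 FPKM (log2 fold change 1.13 ± 0.16, adjusted p = 0.00135). Plscr1, of the phospholipid scramblase family, rose from 4.02 ± 0.936 to 14.1 ± 4.54 FPKM (log2 fold change 1.67 ± 0.25, adjusted p = 0.00153). Tmprss6, a hepatocyte membrane protease that acts on iron regulation, fell from 143 ± 6.47 to 73.5 ± 6.69 FPKM (log2 fold change -0.96 ± 0.13, adjusted p = 8.65e-04). The cargo receptor genes Mcfd2 and Lman1, whose proteins export factors V and VIII, did not pass (log2 -0.25 and -0.46), nor did the plasminogen gene Plg (-0.12).

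Transcription factors known to act on coagulation genes were given as a list of 13, of which 6 rose and 2 fell. The shares over all genes tested were 14.1% higher and 13.0% lower. Hnf4a, a master regulator of hepatocyte genes that binds many coagulation promoters, fell from 206 ± 15.4 to 153 ± 14.5 FPKM (log2 fold change -0.43 ± 0.13, adjusted p = 0.0413). The antioxidant factor gene Nfe2l2 rose from 21.0 ± 1.99 to 33.6 ± 2.91 FPKM (log2 fold change 0.67 ± 0.14, adjusted p = 0.00815), and the glucocorticoid receptor gene Nr3c1 from 11.6 ± 1.95 to 20.4 ± 4.06 FPKM (log2 fold change 0.79 ± 0.19, adjusted p = 0.0155). Klf2, a flow-induced endothelial factor known to induce Thbd, rose from 7.08 ± 1.66 to 13.5 ± 2.92 FPKM (log2 fold change 0.88 ± 0.22, adjusted p = 0.0160). Of the C/EBP genes, Cebpd rose from 4.47 ± 0.722 to 13.5 ± 0.777 FPKM (2.83-fold on the log2(FPKM + 0.5) scale, adjusted p = 4.56e-04), while Cebpa and Cebpb did not pass. Stat3 and Foxa2 did not pass either. No measurement here ties any of these factors to a member gene.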

How the data were processed

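Whole-liver RNA from 3 control and 3 knockout samples was made into TruSeq v2 libraries and sequenced from both ends on a HiSeq instrument, per the labels' protocols. Reads went through Trimmomatic (0.33), TopHat2 (2.1.0) and the Cufflinks programs Cuffdiff and Cuffnorm (both 2.2.1) on build mm9, per the submitters' processing notes. Which gene annotation they used is not stated. The authors deposited 1 FPKM value per gene and library, which was used as it stands. FPKM are not counts, so no count test and no counting interval can be given. Dividing by library size lets a few very abundant genes shift all others. The table has 24318 rows, 8986 at 0 in all libraries, and 27 with names turned into dates, which were tested and never named. Alb, listed at 0 in all controls and at 55705 to 73306 FPKM in the knockouts, was left out of the tests and of summed FPKM, since the zeros may be failed estimates.

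Knockout was compared with control in limma 3.58.1 (R 4.3.3; lmFit and eBayes with trend, two-sided test), using log2(FPKM + 0.5) of the 11842 genes whose mean reached 0.5 FPKM, with Benjamini-Hochberg adjustment. The fit was tested on simulated data without genes of low control level, such as F13a1 and Vwf, so that test does not cover them. All members are named; of other lists, the rule takes the 4 called genes of highest level (the top 2 measured, if fewer than 2 are called), and not all of these are named. Genes named beyond it, as not called, as regulators or as cargo receptors, were chosen after their values were seen. The members and lists were chosen with earlier results of these data known. Apoh and Erg each stand in 2 lists. Neutrophil markers were also listed (7 of 7 tested rose, against 14.1% of all genes tested). Camp and Ltf among them passed the filter only through their knockout level. Alternatives were other pseudocounts, filters, scalings, variance models, leaving out each library, and a replicate block. Promoter windows were matched by symbol for 28 of 34 members from RefSeq on GRCm38.p6. The orientation of 30 windows was checked by looking for the bases after the start in GENCODE transcripts; 25 were found, each printed window among them. The motifs were chosen with the expression values known. Results for 2 listed genes and 1 further motif are not reported here, and the list counts include these genes. Figures used matplotlib 3.10.9.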

Additional observations from a re-analysis of the deposited data

How the results depend on the processing

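Of the 17 called members, 17 remained called with either other pseudocount, with both scalings and with robust variances, 16 with a filter at a mean of 1 FPKM (Vwf and Adamts13 were then not tested), 15 without a filter or without a variance trend, and 14 with the replicate block. With the replicate block, hepatocyte-made members called higher numbered 2, as they did without a filter. Endothelium-made members called lower numbered 1 with a filter at 1 FPKM. Same-numbered libraries did not deviate together (correlations of -0.01, -0.00012 and 0.0015), and no label pairs them, so the block tests only a shared number.

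When each library was left out in turn, all genes called lower numbered 943 to 1497 (943 without control 2 and 996 without control 1) and all genes called higher 1186 to 1644. Members called higher numbered 4 to 6 and lower 7 to 10, hepatocyte-made members called higher 1 to 3 and lower 4 to 6, and endothelium-made members called higher 2 throughout and lower 1 to 2. Differences near 0 changed sign, none of them called: with equal summed FPKM F2 was -0.12 and F5 -0.031, and with 1 library left out F2 ran from -0.053 to 0.065, Pros1 from -0.12 to 0.074 and F2r from -0.29 to 0.22. The cause of these changes was not tested. With 3 libraries a group and no counts, precision is set by the spread between libraries, and values under 0.5 FPKM are compressed by the pseudocount.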
